A study of Homo sapiens with 9 samples.

Results

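The nuclear genes of the respiratory chain were followed in human hepatoma cells that had lost apoB or MTP. They were chosen by gene name alone, as protein-coding genes outside the mitochondrial chromosome whose symbols begin with NDUF, UQCR, COX4 to COX8 or ATP5, or are SDHA, SDHB, SDHC or SDHD. This gave 99 of the 58735 genes in the count table, with 46 assigned to complex I, 4 to complex II, 9 to complex III, 19 to complex IV and 21 to complex V. The name pattern also takes in 8 complex I assembly factors, 2 readthrough genes that join a subunit to its neighbour, and 10 copies or tissue isoforms. RNA sequencing had been done on 9 libraries in 3 groups of 3, which the labels call biological replicates. The control group was Huh-7, a line from a human hepatoma, with the genotype given as WT. The second group, Ako-3, was 1 Huh-7 clone in which APOB, the gene of the structural protein of very low density lipoprotein, had been disrupted with CRISPR-Cas9 ribonucleoproteins. The third group, Mko-3, was 1 clone deficient in MTTP, the gene of the microsomal triglyceride transfer protein that loads apoB with lipid. Cells had been kept overnight without serum before RNA isolation. The methods of the paper describe overnight serum-free medium for collecting secreted proteins and do not mention it for RNA. Each knockout was represented by 1 clone, so the effect of the gene and that of the clone cannot be told apart.

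The respiratory chain lies in the inner mitochondrial membrane. Complexes I and II pass electrons from NADH and succinate to ubiquinone, complex III hands them to cytochrome c, and complex IV gives them to oxygen. Complexes I, III and IV pump protons, and complex V, the ATP synthase, uses the gradient to make ATP. Complexes I, III, IV and V are built from proteins of both genomes, whereas complex II is wholly nuclear-encoded. Hepatocytes are rich in mitochondria, and hepatoma lines grown in glucose medium also draw on glycolysis. Transcription of many of these nuclear genes is known to depend on the factors NRF1, GABPA of the ETS family, and YY1.

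The promoter letters are shown first because the naming rule did not use them and a part of the members share them. In the RefSeq promoter table for GRCh38.p14, 78 of the 99 members had an entry, reaching from 250 bases before the start to 50 bases after it. The NRF1 core GCATGCGC was found on either strand in 16 of these members (20.5%), against 3.68% of all 27305 genes in the table. The ETS core CCGGAAGT was found in 12 (15.4%, against 4.95%), and the YY1 core AAGATGGC in 13 (16.7%, against 3.52%). At least 1 of the 3 cores was present in 34 members (43.6%), against 11.2% of all genes. The 120 bases before the start are printed for 6 members whose mRNA values are given further on, with the matches in capitals. NDUFS6 (chr5:1801287-1801406, plus strand), ATP5F1C (chr10:7788057-7788176, plus strand) and ATP5MC2 (chr12:53676084-53676203, minus strand) hold the NRF1 core. UQCR11 (chr19:1605463-1605582, minus strand) and ATP5F1A (chr18:46098297-46098416, minus strand) hold the ETS core. SDHD (chr11:112086753-112086872, plus strand) holds both. In ATP5F1C and SDHD the NRF1 match reads on both strands, so that overlapping copies of the core are seen as 1 longer run of capitals.
NDUFS6: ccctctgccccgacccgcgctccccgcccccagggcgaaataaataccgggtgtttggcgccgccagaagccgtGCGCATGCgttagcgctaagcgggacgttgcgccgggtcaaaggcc
ATP5F1C: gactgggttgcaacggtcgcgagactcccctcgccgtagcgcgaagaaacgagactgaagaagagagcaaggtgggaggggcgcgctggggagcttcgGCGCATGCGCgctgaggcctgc
ATP5MC2: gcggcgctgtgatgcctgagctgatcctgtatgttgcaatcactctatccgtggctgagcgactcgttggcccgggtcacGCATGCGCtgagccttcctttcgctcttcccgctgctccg
UQCR11: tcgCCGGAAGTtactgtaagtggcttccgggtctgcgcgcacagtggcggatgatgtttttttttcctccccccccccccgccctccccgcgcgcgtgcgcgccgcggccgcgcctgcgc
ATP5F1A: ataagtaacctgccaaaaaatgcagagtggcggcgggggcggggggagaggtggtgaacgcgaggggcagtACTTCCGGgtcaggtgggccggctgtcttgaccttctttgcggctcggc
SDHD: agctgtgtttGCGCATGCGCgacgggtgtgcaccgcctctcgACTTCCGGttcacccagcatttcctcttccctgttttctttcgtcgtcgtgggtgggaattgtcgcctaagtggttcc

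Library totals ranged from 14638727 to 20179760 counts. APOB lay at 83.6 to 94.6 FPKM (fragments per kilobase of gene, scaled to library size) in Ako-3 libraries and at 179 to 258 in control libraries. MTTP lay at 15.3 to 16.6 FPKM in Mko-3 libraries and at 99.3 to 121 in the other libraries. All 9 hepatocyte markers looked at, ALB and HNF4A among them, had a mean above 1 FPKM. None of the 6 fibroblast markers did, and of the leukocyte and endothelial markers only LYZ and PECAM1 did. CD68 and KDR were listed at 0. The summed hepatocyte markers were at 5137 to 5304 FPKM in control, 6105 to 6386 in Ako-3 and 5068 to 5309 in Mko-3. The summed leukocyte markers, with LYZ alone above 1 FPKM, were at 148 to 160 FPKM, 181 to 198 and 184 to 198. Those of endothelium were at 9.86 to 11.3, 13.5 to 14.6 and 7.30 to 7.97 FPKM. The part of these markers in the results was not tested.

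Levels within the chain spanned several orders of magnitude. The deposited FPKM exceeded 100 on average in every group for NDUFS5, COX5A, COX8A and ATP5F1B, and exceeded 10 for 60 members. ATP5F1B, the catalytic beta subunit of the ATP synthase, was the most abundant member with a mean of 340 FPKM over the 9 libraries. In complex I the highest was NDUFS5, an accessory subunit, at 174 FPKM, and in complex IV it was COX8A, a small subunit of the oxidase, at 172. UQCRH, the hinge protein of complex III, led its complex at 94.8 FPKM. In complex II the 4 genes lay close together, from 10.1 FPKM for SDHC, a membrane anchor, to 23.7 for SDHB, the iron-sulfur subunit. The gene lengths used in the deposited FPKM count all annotated exons, so a gene with long rare transcripts appears lower than one without.

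Of alternative isoforms, the liver or general form carried nearly all of the signal. COX4I1 accounted for 99.8% of the summed COX4 FPKM, against 12 counts in all for the lung and hypoxia form COX4I2. COX7A2 accounted for 99.6% of COX7A, with 34 counts for the heart and muscle form COX7A1. COX6A2, the muscle form of COX6A, and COX7B2 and COX8C were listed at 0 in all 9 libraries, which allows up to 3 counts per library. COX6B2, known from testis, had 49 counts, and NDUFA4 made up 97.8% of the sum with its hypoxia-associated relative NDUFA4L2. UQCRHL, an intronless copy of UQCRH, had 1.73% of their sum. In bulk RNA, fewer cells that express a gene and less RNA per cell cannot be told apart.

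Several of the lowest levels stood with shared exons. In the GENCODE 44 annotation of hg38, 7 of the 77 core and accessory subunits share at least 50% of the bases of their canonical transcript with exons of another gene on the same strand. These are NDUFV2, NDUFA7, NDUFA11, NDUFA13, NDUFB8, SDHA and ATP5PO, and their median was 2.98 FPKM. For SDHA, the highest of them at 23.5 FPKM, the gene that shares its exons is absent from the deposited counts. The 59 subunits that share none had a median of 35.4 FPKM and a lowest value of 3.90. Low levels were also seen with less sharing. The 11 subunits that share some bases but under 50% had a median of 13.8 FPKM, and the lowest was NDUFA9 at 1.36, with 11.7% shared. NDUFV2, the iron-sulfur subunit of the NADH-oxidizing arm of complex I, shares 90.0% of its canonical transcript and had 206 counts over 9 libraries, 6 to 40 per library. Its pseudogene NDUFV2P1 had 505 counts. NDUFA7, an accessory subunit, shares 77.9% and had 55 counts. How reads over such exons had been counted, and whether counting used the strand, is not given in the sources used here, and its part in these levels was not tested.

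**Figure D1:**
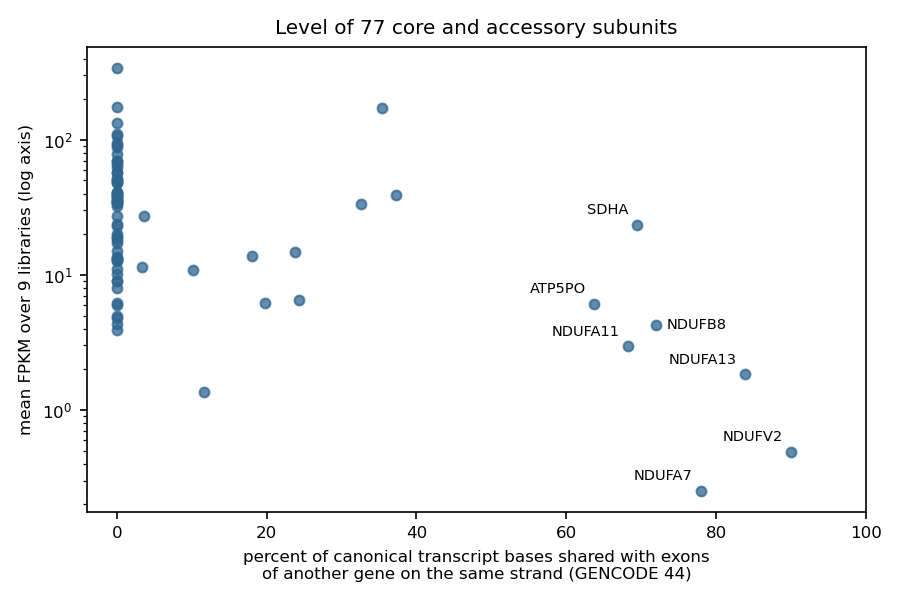
Mean FPKM over 9 libraries, on a log axis, of the 77 core and accessory subunits (points) against the percent of the bases of the canonical transcript that lie in exons of another gene on the same strand. The 7 named subunits at 50% or more sit between 0.253 and 23.5 FPKM, with a median of 2.98, and the 59 subunits at 0% have a median of 35.4. The 11 subunits in between have a median of 13.8 FPKM.

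In Ako-3 cells the nuclear respiratory chain genes were, on the whole, modestly higher than in control cells. Of the 89 members with enough counts to be tested, 40 rose and 5 fell at an adjusted p of at most 0.05 (edgeR quasi-likelihood test, adjusted over all 15787 genes tested). Of all genes tested, 25.5% rose and 24.4% fell, so that the members' share of rises (44.9%) lay above the background and their share of falls (5.62%) below it. The median log2 fold change of the members was 0.17, against -0.01 for all genes, and 68 members had values above zero. Only NDUFV2 also passed an absolute log2 fold change of 1, a pair of thresholds that 8.52% of all genes passed. The count of rises was 26 without control 3, 23 without Ako-3 3 and 47 without control 1. In those fits 22.2%, 21.0% and 23.3% of all genes rose. Of the 45 calls, 25 held when any 1 library was left out, with 22 rises and 3 falls among them. When counts were scaled by library totals alone, the median of all genes moved to -0.10 and that of the members to 0.08. Then 21 members rose and 12 fell, while 19.4% of all genes rose and 31.4% fell. The changes are thus best read relative to all genes.

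In Mko-3 cells the shift was smaller and more divided. Of the 89 tested members, 27 rose and 13 fell, against backgrounds of 26.9% and 27.1% of the 15745 genes tested (members 30.3% and 14.6%). Their median log2 fold change was 0.09, against -0.01 for all genes. NDUFC2 alone passed both thresholds, as 11% of all genes did, and it fell short of them when Mko-3 2 or control 1 was left out. The count of falls was 7 without Mko-3 2 and 8 without Mko-3 3, where 22.9% and 22.1% of all genes fell. Of the 40 calls, 24 held without any 1 library, with 19 rises and 5 falls. Both comparisons use the same control libraries.

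**Figure D2:**
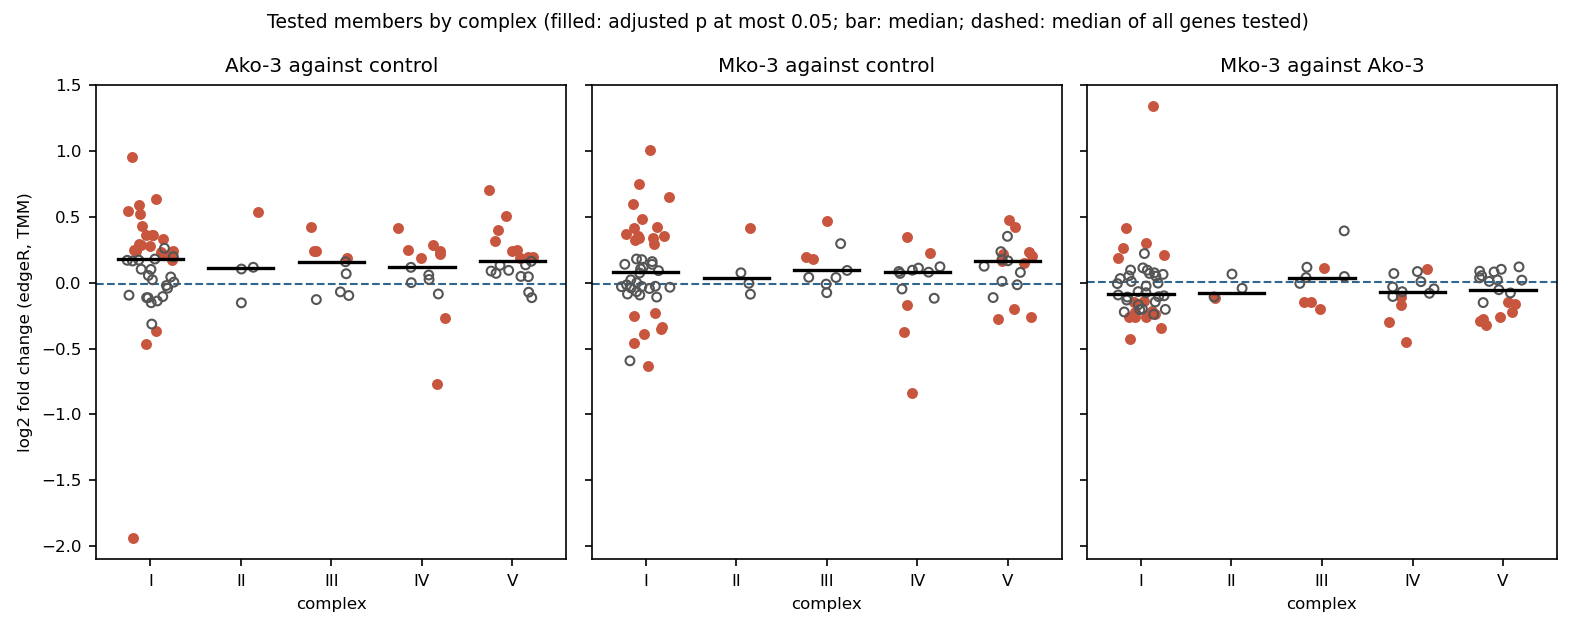
Log2 fold changes of the 89 tested members (points) by complex, for Ako-3 against control, Mko-3 against control and Mko-3 against Ako-3. Filled points have an adjusted p of at most 0.05, black bars are medians per complex and dashed lines are medians of all genes tested. In Ako-3 all 5 medians lie above the dashed line, from 0.11 in complex II to 0.18 in complex I, and the lowest point is NDUFV2 at -1.94.

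As a share of the library, the members differed little between groups. They took 0.794, 0.749 and 0.725% of the counts in control libraries, 0.774, 0.804 and 0.818% in Ako-3 libraries, and 0.759, 0.757 and 0.765% in Mko-3 libraries. Control 1 lay above Ako-3 1, so that these groups overlapped, and the Mko-3 libraries lay within the control range. The means were 0.756% ± 0.035 (SD, n = 3), 0.799% ± 0.022 and 0.761% ± 0.004. Complex II did not overlap with control in either clone, at 0.0400 to 0.0428% in control, 0.0446 to 0.0478% in Ako-3 and 0.0441 to 0.0453% in Mko-3. Of its 4 genes only SDHA passed the test by edgeR, with log2 fold changes of 0.54 in Ako-3 and 0.42 in Mko-3. SDHB, SDHC and SDHD had -0.15, 0.10 and 0.12 in Ako-3, and -0.09, -0.004 and 0.08 in Mko-3. Complex V did not overlap between control (0.251 to 0.270%) and Ako-3 (0.272 to 0.287%). All genes of the mitochondrial genome took 5.52 to 6.17% of the counts in control, 7.06 to 7.40% in Ako-3 and 5.75 to 5.82% in Mko-3. Its 13 protein genes alone took 4.09 to 4.72%, 6.02 to 6.37% and 4.98 to 5.07%, so that for these Mko-3 also lay above control. With all genes of the mitochondrial genome left out of the total, the members' means were 0.802, 0.861 and 0.807%.

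**Figure D3:**
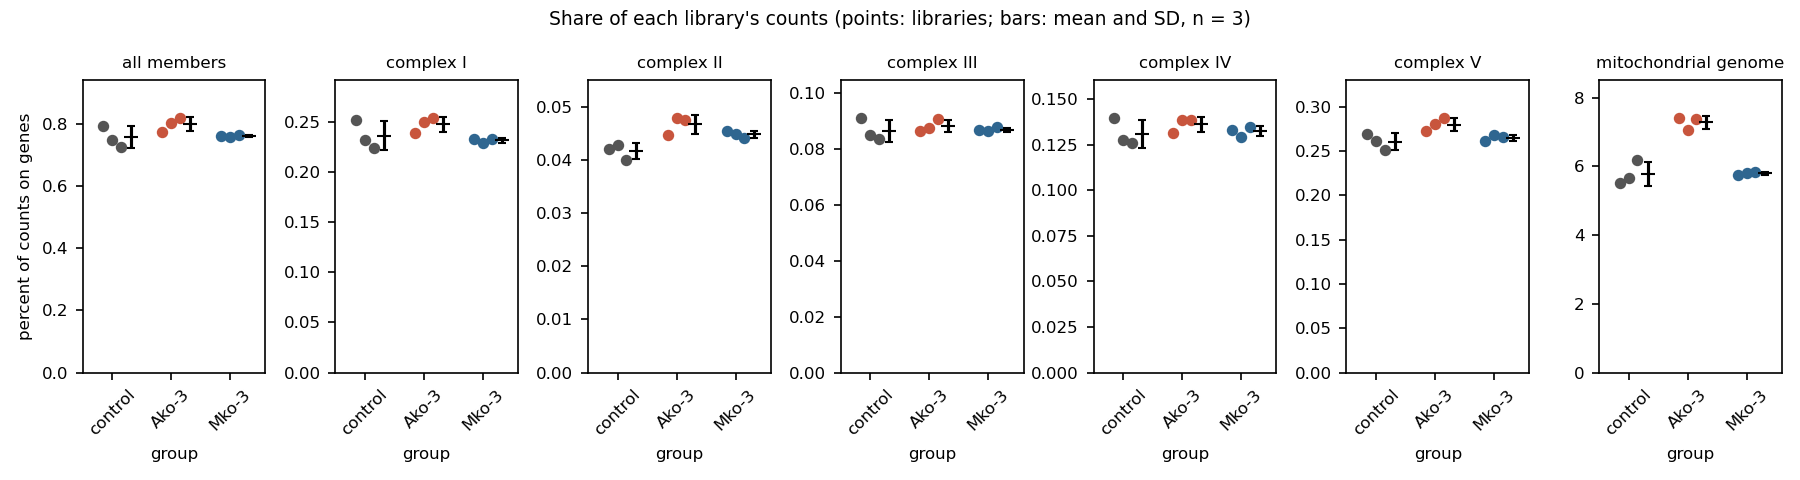
Percent of the counts on genes taken by all 99 members, by each complex and by the mitochondrial genome, from zero on each axis. Points are libraries and bars are the mean and SD of 3 libraries, and the Ako-3 libraries stand above control without overlap for complexes II and V and for the mitochondrial genome. In complex II only SDHA of the 4 genes passed the edgeR test. The panel of the mitochondrial genome counts all of its genes, not only those of proteins.

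In complex I, 20 of 44 tested members rose and 3 fell in Ako-3 (45.5% and 6.82%, against 25.5% and 24.4% of all genes), and 14 rose and 7 fell in Mko-3 (31.8% and 15.9%, against 26.9% and 27.1%). Its accessory subunits, which surround the catalytic core and take part in assembly and stability, held most of them, with 16 rises and 2 falls among 29 tested in Ako-3 (median 0.24) and 11 rises and 5 falls in Mko-3 (median 0.14). Of the 7 core subunits, 2 rose and 1 fell in Ako-3, and 0 rose and 2 fell in Mko-3 by edgeR (0 rises also at an unadjusted p below 0.05 and by DESeq2).

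NDUFC2, a membrane-arm accessory subunit (chromosome 11, 78068304 to 78080219, minus strand), had the largest rise. It was at 3.43, 4.07 and 3.79 FPKM in control, 7.21, 7.77 and 6.94 in Ako-3, and 7.77, 7.94 and 7.15 in Mko-3. Both clones lay above all control libraries and overlapped each other. The log2 fold change was 0.96 ± 0.11 (SE; adjusted p = 8.21e-07, edgeR) in Ako-3 and 1.01 ± 0.11 (adjusted p = 1.66e-07) in Mko-3. NDUFC2 shares 19.7% of its canonical transcript with the readthrough gene NDUFC2-KCTD14, which was listed at 0 in every library.

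NDUFS6, a zinc-binding accessory subunit needed for late assembly, whose promoter with an NRF1 core is printed above, also rose in both clones. Its FPKM were 14.4, 12.4 and 11.4 in control, 18.3, 19.7 and 21.8 in Ako-3, and 20.8, 19.8 and 24.5 in Mko-3, with no overlap with control. The log2 fold changes were 0.64 ± 0.10 (adjusted p = 3.43e-05, edgeR) and 0.75 ± 0.11 (adjusted p = 3.94e-06). NDUFB2, a membrane-arm accessory subunit, had 6.67 to 8.09 FPKM in control, 7.83 to 9.96 in Ako-3 and 10.6 to 11.6 in Mko-3. Mko-3 thus lay above both other groups, by 0.60 ± 0.09 against control and by 0.27 ± 0.07 against Ako-3 (adjusted p = 5.97e-06 and 1.27e-03, edgeR). Its rise in Ako-3, 0.34, lost its call without Ako-3 3 (adjusted p = 0.065). NDUFS5 rose by 0.43 in Mko-3 (148 ± 2.69 to 201 ± 2.47 FPKM, SD, n = 3). The value in Ako-3 was 0.21, and it lost its call without Ako-3 2, Ako-3 3 or control 3 (adjusted p up to 0.16).

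NDUFV1, the core subunit that binds FMN and takes electrons from NADH, went opposite ways in the clones. It is named, like NDUFS7 and NDUFS4 here, after its values had been seen. Its FPKM were 95.0, 87.3 and 80.0 in control, 97.8, 101 and 103 in Ako-3, and 77.8, 73.9 and 74.3 in Mko-3, so that the 3 groups did not overlap. It fell by 0.43 on the log2 scale between Ako-3 and Mko-3 (adjusted p = 1.16e-15, edgeR, adjusted over 15528 genes). Against control it was 0.20 higher in Ako-3, a call lost without Ako-3 3 or control 3 (adjusted p up to 0.073), and 0.23 lower in Mko-3 (log2 fold change -0.23 ± 0.06). NDUFS7, a core subunit with an iron-sulfur cluster near the ubiquinone site, fell in Mko-3 (-0.46 ± 0.09, adjusted p = 1.65e-04, edgeR), from 4.40 to 3.23 FPKM, and 51.3% of its canonical transcript lies over exons of a gene on the other strand. NDUFS4, an accessory subunit of the NADH arm, fell from 15.2 FPKM to 11.8 in Ako-3 (-0.37 ± 0.11) and 12.1 in Mko-3 (-0.34 ± 0.11), the latter call being lost without Mko-3 3 (adjusted p = 0.061). NDUFA8, NDUFB3 and NDUFA6, also named after their values had been seen, rose by 0.43, 0.52 and 0.37 in Ako-3 and by 0.48, 0.42 and 0.34 in Mko-3, and these 6 calls held without any 1 library. NDUFA13, an accessory subunit that shares 83.9% of its canonical transcript with other genes, fell by 0.47 on the log2 scale in Ako-3, a call lost without Ako-3 1, Ako-3 3, control 1 or control 2 (adjusted p up to 0.20), and by 0.63 in Mko-3, a call lost without Mko-3 2 (adjusted p = 0.060).

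NDUFV2 had the lowest fold change of all members, at low counts. Its libraries held 38, 40 and 29 counts in control, 6, 13 and 10 in Ako-3, and 23, 24 and 23 in Mko-3. The Ako-3 libraries were below all others. The log2 fold change was -1.94 ± 0.36 in Ako-3 (adjusted p = 1.33e-04, edgeR) and -0.59 ± 0.29 in Mko-3 (adjusted p = 0.093). The part of its shared exons in these values was not tested. The pseudogene NDUFV2P1 had 41 to 79 counts in control, 52 to 59 in Ako-3 and 42 to 66 in Mko-3, with no such gap.

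Of the 8 complex I assembly factors, which help to build the complex but are not part of it, 2 rose in Ako-3 (25%, against 25.5% of all genes) and 3 in Mko-3 (37.5%, against 26.9%), so that in Ako-3 the share of rises was that of all genes. NDUFAF1 was at 7.13 to 8.34 FPKM in control, 10.8 to 11.4 in Ako-3 (log2 fold change 0.54) and 9.50 to 9.97 in Mko-3 (0.34). NDUFAF8 rose by 0.59 in Ako-3 and by 0.65 in Mko-3. NDUFAF4 was higher in Mko-3 than in Ako-3 by 0.42 ± 0.12 (adjusted p = 3.69e-03, edgeR), and its value against control in Mko-3, 0.32, lost its call without any of the Mko-3 libraries or without control 3 (adjusted p up to 0.14). For NDUFAF2, a factor that binds late in assembly, the value in Ako-3 was -0.31, and for NDUFAF3 it was 0.06, neither passing the test. NDUFAF5, NDUFAF6 and NDUFAF7 lay between -0.14 and 0.18 in both clones, and none passed the test.

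In complex II, SDHA, the flavoprotein that oxidizes succinate, was the only gene that rose in either clone by edgeR. It measured 18.9, 19.9 and 16.8 FPKM in control, 25.5, 27.3 and 28.1 in Ako-3, and 25.7, 24.4 and 24.8 in Mko-3. Every knockout library lay above every control library, by 0.54 ± 0.07 (adjusted p = 1.50e-06, edgeR) and 0.42 ± 0.07 (adjusted p = 1.51e-05) on the log2 scale. SDHA shares 69.4% of its canonical transcript with another gene, and its pseudogenes held 3179 counts against its own 30945. SDHB, SDHC and SDHD had log2 fold changes of -0.15, 0.10 and 0.12 in Ako-3 and of -0.09, 0.00 and 0.08 in Mko-3, none past the test. The promoter of SDHD holds both cores, as printed above.

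Complex III had 4 rises in Ako-3 among its 9 members (44.4%, against 25.5% of all genes) and 3 in Mko-3 (33.3%, against 26.9%). These members had 0 falls in either by edgeR, by DESeq2 or at an unadjusted p below 0.05. The name pattern leaves out CYC1, also a nuclear gene of complex III, which is counted below with the other electron transfer genes. By edgeR, 24.4% of all genes fell in Ako-3 and 27.1% in Mko-3. UQCR11, a small subunit whose promoter holds an ETS core, was at 10.6, 11.3 and 11.4 FPKM in control, 14.0, 15.2 and 15.6 in Ako-3, and 15.8, 16.1 and 14.6 in Mko-3. The clones overlapped each other and lay above control, with log2 fold changes of 0.43 ± 0.09 (adjusted p = 4.08e-04, edgeR) and 0.47 ± 0.09 (adjusted p = 1.15e-04). It shares 18.1% of its canonical transcript with another gene. UQCRFS1, the Rieske iron-sulfur protein, rose from 32.6 to 38.5 FPKM in Ako-3 (0.24), and UQCR10 from 59.0 to 70.0 (0.24), both calls being lost without Ako-3 3 or control 3 (adjusted p up to 0.067 and 0.081). In Mko-3 their values were 0.09 and 0.04. UQCRB, which helps to form the ubiquinone-binding site, and UQCRH were higher in Mko-3 by 0.20 and 0.18. These calls were also lost on leaving out single libraries, UQCRB without any 1 of the Mko-3 libraries or control 2 (adjusted p up to 0.083) and UQCRH without Mko-3 3 (adjusted p = 0.061).

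**Figure D4:**
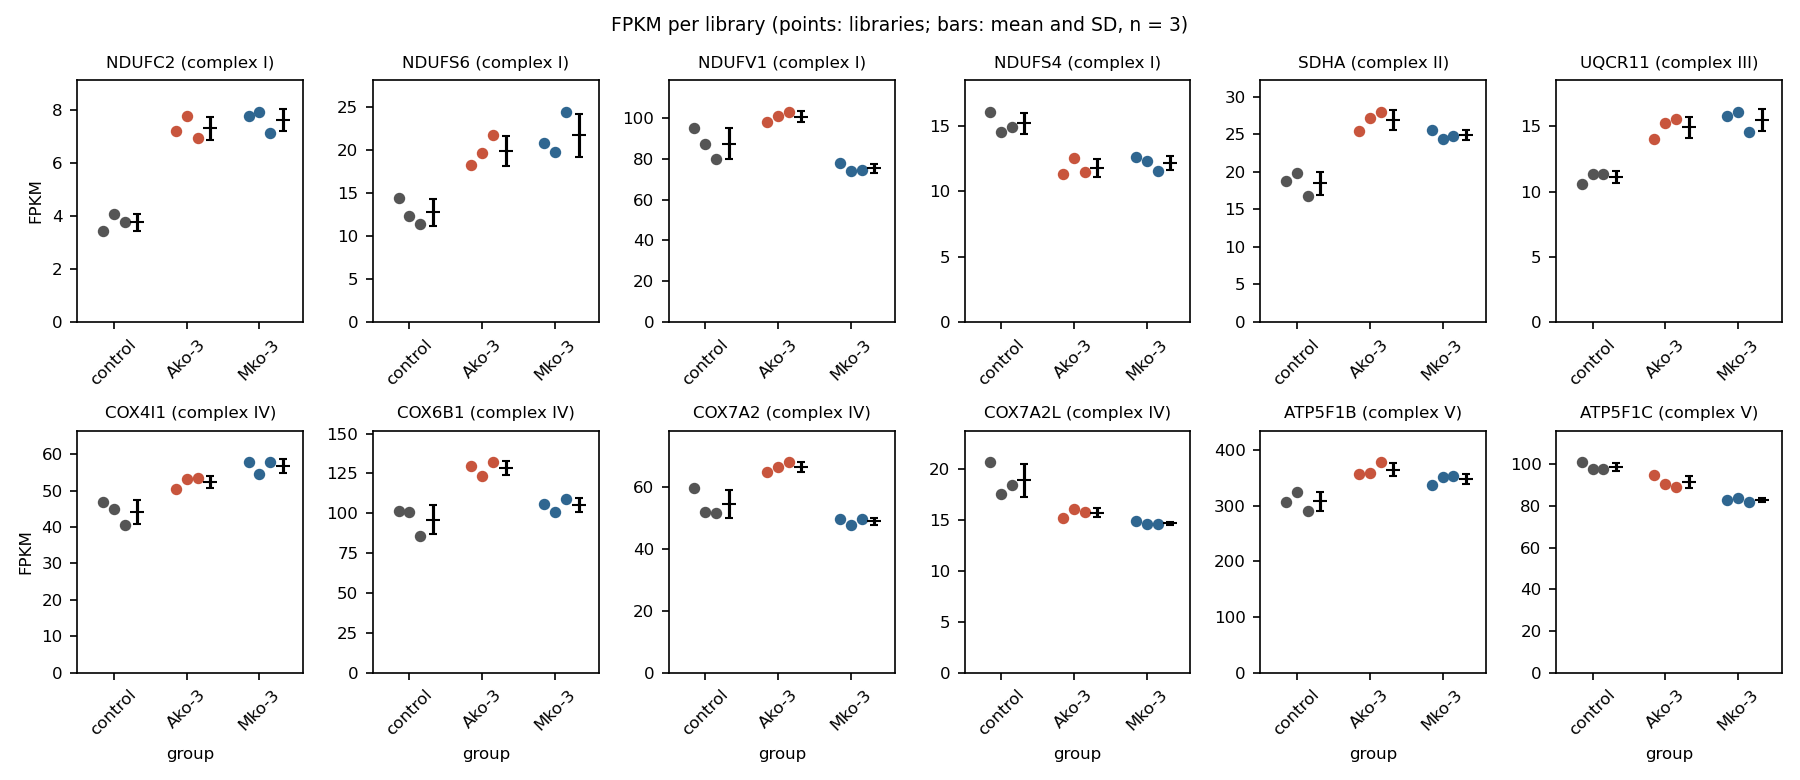
FPKM per library (points) with the mean and SD of 3 libraries (bars) for 12 members, from zero on each axis. NDUFC2, NDUFS6, SDHA, UQCR11 and COX4I1 stand above control in all 6 knockout libraries, COX7A2L and NDUFS4 below it, and NDUFV1 and COX7A2 stand above control in Ako-3 and below it in Mko-3.

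In complex IV, 6 of 13 tested members rose and 2 fell in Ako-3 (46.2% and 15.4%, against 25.5% and 24.4% of all genes). In Mko-3, 2 rose and 3 fell (15.4% and 23.1%, against 26.9% and 27.1%), so that the share of rises lay below that of all genes. In both clones 2 of the falls were COX7A2L and NDUFA4L2, counted as copies or tissue isoforms. By edgeR the 11 accessory subunits had 6 rises and 0 falls in Ako-3 (54.5% and 0%). In Mko-3 they had 2 rises and 1 fall (18.2% and 9.09%), the fall being COX7A2. COX4I1, which carries an allosteric nucleotide site, was at 46.8, 45.1 and 40.6 FPKM in control, 50.5, 53.2 and 53.5 in Ako-3, and 57.9, 54.7 and 57.8 in Mko-3. The 3 groups did not overlap, and the log2 fold changes against control were 0.24 ± 0.06 (adjusted p = 3.45e-03, edgeR) and 0.35 ± 0.06 (adjusted p = 8.30e-05). COX5A rose by 0.22 in each. COX4I1, COX5A and COX8A lost their calls in Ako-3, though not their direction, with library totals as the only scaling.

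COX6B1, which links the monomers of the oxidase dimer, rose in Ako-3 from 95.9 ± 9.0 to 129 ± 4.37 FPKM (SD, n = 3; log2 fold change 0.42, adjusted p = 6.03e-05, edgeR). Its mean in Mko-3 was 105 FPKM, lower than in Ako-3 by a log2 difference of -0.30 ± 0.05 (adjusted p = 7.90e-07). COX7A2, a peripheral subunit, was at 59.7, 52.0 and 51.6 FPKM in control, 64.7, 66.5 and 68.0 in Ako-3, and 49.6, 47.6 and 49.5 in Mko-3. The clones lay on opposite sides of control and differed from each other by -0.45 ± 0.05 (adjusted p = 2.67e-12). The rise in Ako-3, 0.28, held without any 1 library. The value in Mko-3, -0.17, lost its call without any of the Mko-3 libraries or control 1 (adjusted p up to 0.27), and with DESeq2, with its size factors, with no filter on low counts and with the replicate block.

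COX7A2L, a relative of COX7A2 that joins complexes III and IV into supercomplexes, fell in both clones. Its values were 20.7, 17.5 and 18.4 FPKM in control, 15.2, 16.1 and 15.7 in Ako-3, and 14.8, 14.6 and 14.6 in Mko-3. Every knockout library was below every control library, with log2 fold changes of -0.27 ± 0.07 (adjusted p = 3.37e-03, edgeR) and -0.38 ± 0.07 (adjusted p = 1.20e-04). NDUFA4L2 had 27 to 106 counts per library and log2 fold changes of -0.77 in Ako-3 and -0.83 in Mko-3, in groups that overlapped. Its calls were lost without control 1, control 3 or either of 2 knockout libraries (Ako-3 1 or 3, Mko-3 2 or 3), with adjusted p up to 0.19 and 0.095. NDUFA4L2 lies opposite SHMT2, which had 48850 counts, and 3.50% of its canonical transcript lies over exons of any other gene. NDUFA4, now assigned to complex IV, had log2 fold changes of 0.06 and -0.05. COX6A1 and COX7B had 0.12 and -0.09 in Ako-3, and 0.07 and -0.12 in Mko-3, without passing the test.

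In complex V, 9 of 19 tested members rose in Ako-3 (47.4%, against 25.5% of all genes). By edgeR 0 fell there (0 falls also at an unadjusted p below 0.05 and by DESeq2), against 24.4% of all genes. In Mko-3 7 rose and 3 fell (36.8% and 15.8%, against 26.9% and 27.1%). Of the 8 genes of the catalytic head, stalk and ring counted as core, 5 rose in Ako-3 (62.5%), while 4 rose and 3 fell in Mko-3 (50% and 37.5%). ATP5F1A, the alpha subunit, was at 29.2, 31.8 and 29.5 FPKM in control and 37.4, 36.1 and 39.3 in Ako-3 (log2 fold change 0.31 ± 0.06, adjusted p = 2.16e-04, edgeR). In Mko-3 it was at 33.4 to 34.4 FPKM, and the value of 0.15 lost its call without any 1 library other than control 2 (adjusted p up to 0.10). ATP5F1B rose by 0.24 in Ako-3. In Mko-3 it had 0.16, a call lost without Mko-3 2, Mko-3 3 or control 3 (adjusted p up to 0.075). ATP5F1C, the gamma subunit that turns in the head, went the other way. It was at 101, 97.7 and 97.5 FPKM in control and at 83.1, 84.0 and 81.9 in Mko-3 (-0.26 ± 0.06, adjusted p = 6.30e-04). Its value in Ako-3 was -0.11. ATP5F1A and ATP5F1C hold an ETS and an NRF1 core in the printed promoters.

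The membrane ring of the ATP synthase is made of subunit c, whose 3 genes differ in their import sequences and give the same mature protein. ATP5MC1 was at 22.3, 28.2 and 21.7 FPKM in control, 37.0, 37.6 and 42.9 in Ako-3, and 33.8, 34.2 and 33.0 in Mko-3, and rose by 0.70 ± 0.09 (adjusted p = 4.89e-06, edgeR) and 0.48 ± 0.08 (adjusted p = 6.85e-05). ATP5MC2 was at 45.3, 39.8 and 40.7 FPKM in control, 41.8, 43.4 and 45.3 in Ako-3, and 34.4, 34.7 and 35.9 in Mko-3, and fell in Mko-3 alone by edgeR (-0.27 ± 0.06, adjusted p = 1.13e-03, against 0.05 in Ako-3 and a difference between the clones of -0.32 ± 0.05, adjusted p = 1.25e-08). ATP5MC3 had 0.19 in Ako-3, a call lost without Ako-3 2, Ako-3 3 or control 3 (adjusted p up to 0.098), and rose by 0.21 in Mko-3. The share of ATP5MC1 in the summed FPKM of the 3 genes was 26.5% in control, 35.3% in Ako-3 and 34.5% in Mko-3, and that of ATP5MC2 was 46.3, 39.2 and 35.9%. The sum was 85.0 to 93.5 FPKM in control, 106 to 116 in Ako-3 and 96.9 to 97.9 in Mko-3, without overlap. Sum and shares weight ATP5MC1, ATP5MC2 and ATP5MC3 by lengths of 2615, 3991 and 6780 bases, where the canonical transcripts have 646, 632 and 2587. Whether Mko-3 stays apart from control under other lengths or scaling was not tested, so its higher sum is bound to these FPKM.

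**Figure D5:**
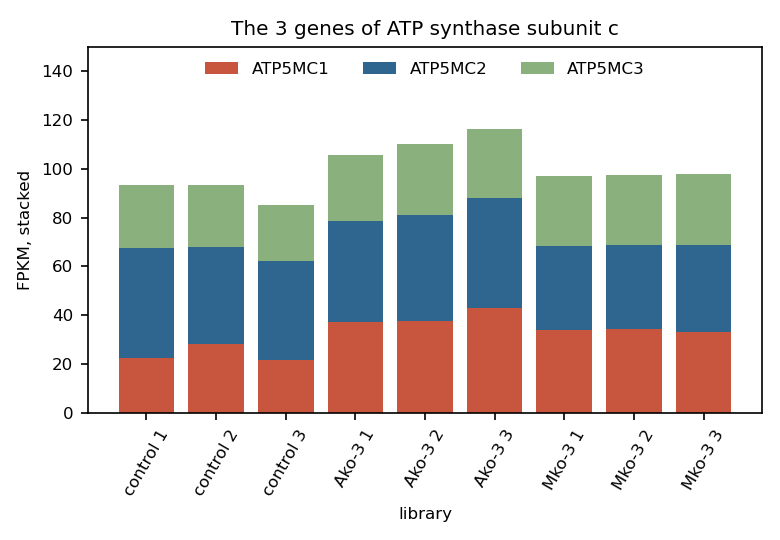
Stacked FPKM of ATP5MC1, ATP5MC2 and ATP5MC3, the 3 genes of subunit c, in each of the 9 libraries. The ATP5MC1 part grows from 21.7 to 28.2 FPKM in control to 33.0 to 42.9 in the knockout libraries, and the stacks are tallest in Ako-3 (106 to 116 FPKM). Stack heights depend on the gene lengths used in the deposited FPKM.

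ATP5MF, a membrane subunit, rose in both clones (0.40 and 0.42, adjusted p = 1.52e-03 and 3.10e-05, edgeR), from 32.1 ± 2.48 FPKM to 42.5 ± 6.05 and 43.4 ± 1.20 (SD, n = 3). It shares 37.2% of its canonical transcript with PTCD1 and a readthrough gene. ATP5IF1, the inhibitor that blocks hydrolysis of ATP when the gradient fails, was at 33.0 to 44.9 FPKM in control, 38.0 to 41.3 in Ako-3 and 37.6 to 44.2 in Mko-3. These ranges overlapped, and the log2 fold changes of 0.07 and 0.13 did not pass the test.

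Set against each other, the clones differed in 33 members, of which 8 were higher and 25 lower in Mko-3. Of all 15528 genes tested, 21.1% were higher and 20.6% lower, and the members' shares were 8.99% and 28.1%. The median log2 difference was -0.07 for the members and 0.00 for all genes. NDUFV2, at 1.34 ± 0.39 (adjusted p = 3.30e-03, edgeR), was the one member past both thresholds, as 5.73% of all genes were. Core subunits were lower in Mko-3 in 10 of 20 cases and higher in 1. In complex V they were lower in 6 of 8, among them ATP5F1D (-0.29) and ATP5F1E (-0.26), the small subunits of the central stalk, named after their values had been seen. Of the 33 calls, 21 held without any 1 library, with 18 lower and 3 higher. The count of higher members was 4 without Ako-3 1, 5 without Ako-3 2 and 4 without Mko-3 3.

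The 13 proteins of the mitochondrial genome are the partners of these subunits in complexes I, III, IV and V. In Ako-3 12 rose and 0 fell by edgeR (0 falls also at an unadjusted p below 0.05 and by DESeq2), with a median log2 fold change of 0.66. In Mko-3 10 rose and 0 fell by edgeR, with a median of 0.39, and 1 fell at an unadjusted p below 0.05 and by DESeq2. Between the clones, 10 were lower in Mko-3 and 0 higher by edgeR, by DESeq2 (9 lower) or at an unadjusted p. Of all genes tested by edgeR, 25.5% rose and 24.4% fell in Ako-3, and 26.9% and 27.1% in Mko-3. Between the clones, 21.1% of all genes were higher and 20.6% lower in Mko-3. MT-CYB, cytochrome b of complex III, rose by 0.96 in Ako-3 and 0.62 in Mko-3. MT-ND3, a complex I subunit, did not pass the test of edgeR in either comparison with control (-0.15 and -0.24).

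Other mitochondrial genes were counted from lists written by hand, to be read against the 25.5% of all genes that rose and 24.4% that fell in Ako-3, and the 26.9% and 27.1% in Mko-3. Of 77 tested mitochondrial ribosomal proteins, 35 rose and 2 fell in Ako-3 (median 0.19), and 29 rose and 6 fell in Mko-3 (0.17). Of 13 genes of the tricarboxylic acid cycle, 6 rose and 2 fell in Ako-3, and 3 rose and 2 fell in Mko-3, the rises in Mko-3 being no larger a share than in all genes. Of 16 genes of the outer membrane and protein import, 8 rose in each clone and 2 and 3 fell. Of 41 assembly factors outside the name pattern, 13 rose and 8 fell in Ako-3, and 9 rose and 8 fell in Mko-3, with medians of 0.06 and -0.01, against -0.01 for all genes in both comparisons. Of 19 other electron transfer genes, which include ATP5S of the members, 8 rose and 1 fell in Ako-3, and 6 rose and 5 fell in Mko-3.

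Of 15 regulators of mitochondrial biogenesis, 2 rose and 4 fell in Ako-3, and 7 rose and 2 fell in Mko-3. In each clone 1 of them fell past both thresholds against control, which 8.52% and 11% of all genes passed. The lowest log2 fold change in the list was -1.44 in Ako-3 and -3.08 in Mko-3, and -1.64 for Mko-3 against Ako-3. NRF1, whose core stands in 16 member promoters, had log2 fold changes of 0.01 in Ako-3 and 0.30 in Mko-3 (adjusted p = 0.970 and 0.024, edgeR), and GABPA had -0.28 (adjusted p = 8.80e-03) and -0.04. In Ako-3, 12 of 33 tested members that hold any of the 3 cores rose (median 0.13), as did 20 of 39 that hold none (median 0.20). In Mko-3 these were 11 of 33 (median 0.08) and 10 of 39 (median 0.09).

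The other members were 10 genes too low to be tested, namely NDUFA7, COX4I2, COX6A2, COX6B2, COX7A1, COX7B2, COX8C, ATP5MGL and the 2 readthrough genes, with 0 to 55 counts each over the 9 libraries. ATP5S, a factor linked to the ATP synthase, stayed under 1 FPKM, and its log2 fold change in Ako-3 was 0.50, a call lost without Ako-3 2, Ako-3 3, control 1 or control 3 (adjusted p up to 0.11).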

How the data were processed

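Poly(A) RNA of 9 Huh-7-derived libraries had been sequenced as paired 150-base reads. Alignment by the authors was to hg38, with HISAT2 2.0.5, and counting per gene was with featureCounts 1.5.0-p3 (versions also in the submitters' processing notes). The authors deposited raw counts and FPKM values. From the values, the deposited FPKM are counts divided by gene length and 1 size per library. Handling of overlapping genes is not given in the sources used here.

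Counts were tested with edgeR 4.0.16 in R 4.3.3 (TMM, genes kept by filterByExpr with 10 as the minimum count, quasi-likelihood F test with robust dispersion), with a separate fit of 6 libraries for each of 3 comparisons. Adjusted p-values are Benjamini-Hochberg over all genes tested. The SE is the absolute log2 fold change over the root of F. Alternatives were DESeq2 1.42.0, library totals, size factors, no filter, a joint fit, a replicate block and leaving out each library. Fits were tested on simulated data. The members and lists were chosen with earlier results of these data known. Named members were the 3 with the smallest adjusted p per complex and comparison with control, those past both thresholds, the highest and lowest by FPKM, isoforms and copies, ATP5IF1 and the assembly factors. Same-numbered libraries did not deviate together (correlations -0.07 to 0.07). Of member positions, 38 of 99 equal those of GENCODE 44.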

Additional observations from a re-analysis of the deposited data

Results flagged for a closer look

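NDUFV2 differed between the clones, with a log2 fold change of Mko-3 against Ako-3 of 1.34 in the direct edgeR test (adjusted p = 3.30e-03). It was at 23 to 24 counts in Mko-3 libraries and at 6 to 13 in Ako-3 libraries, and 90.0% of its canonical transcript is shared with exons of another gene. The part of read sharing in this difference was not tested.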

How the results depend on the processing

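No member past the threshold changed direction when 1 library was left out, while some members that did not pass it did, such as COX7B in Ako-3 (-0.22 to 0.07). Of their values under alternatives, 1362 kept their side of the threshold, 96 fell below it and 18 rose above it. With library totals as the only scaling, Ako-3 had 21 rises, 12 falls and a median of 0.076, while 19.4% of all genes rose and 31.4% fell. Mko-3 then had a median of 0.024 and 0 members past both thresholds by edgeR, against 1 by DESeq2. Under that scaling NDUFS5, NDUFV1, UQCRFS1, UQCR10, COX4I1, COX5A, COX8A, ATP5MC3 and ATP5S lost their calls in Ako-3, and NDUFAF4, UQCRB, UQCRH, ATP5F1A and ATP5F1B in Mko-3. With DESeq2, NDUFA13, NDUFA4L2 and ATP5S lost theirs in Ako-3, and NDUFAF4, COX7A2 and ATP5F1D in Mko-3. With DESeq2, falls in Ako-3 came to 3 and members higher in Mko-3 than in Ako-3 to 5, and with all 9 libraries in 1 fit the latter came to 4. The matching shares of all genes were 17.8%, 14.7% and 16.5%. Leaving out 1 library gave 23 to 47 rises, 3 to 8 falls and 1 to 2 members past both thresholds in Ako-3. For Mko-3 it gave 7 to 14 falls and 0 to 2 members past both thresholds, and for Mko-3 against Ako-3 4 to 7 members higher. With the replicate block, rises and falls were 36 and 4 in Ako-3, 27 and 12 in Mko-3, and 8 and 26 between the clones. For all genes they were 24.0% and 22.8%, 27.2% and 27.2%, and 21.6% and 21.0%. Without counts of the mitochondrial genome the members' shares were 0.802, 0.861 and 0.807% in control, Ako-3 and Mko-3. The median FPKM over members was 15.1, 17.02 and 15.9, and 19.8, 22.5 and 23.7 without members at 1 FPKM or less in every group. From TMM-scaled counts per kilobase the Ako-3 median was 17.3. The cause of these shifts was not tested, apart from fewer samples when a library is left out. Members with few counts, such as NDUFV2 and NDUFA4L2, are limited by depth.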
